A study of Mus musculus with 4 samples.

Results

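The 39 genes described here encode the machinery that copies DNA in S phase: the sliding clamp and its loader, the MCM helicase with its licensing factors and partners, the polymerases and primase, fragment joining, nucleotide supply, and the G1/S regulators around them. They were chosen by symbol from a list of DNA replication, origin licensing and nucleotide synthesis genes, by a rule that uses no measured value, although the list was drawn up with earlier results of these data known, and all 39 were found among the 25522 genes of the table without tetracycline and the 26085 genes of the table with it. All 39 had an adjusted p in both tables, so none was lost to a filter on low values. The crypts of the small intestine, pits in the gut lining that hold the stem cells and their rapidly dividing progeny, were taken from male C57BL/6J mice aged 9 weeks. The 4 groups were fed or fasted for 24 hours, each without tetracycline or after 21 days of it. Crypts were released with EDTA and then digested to single cells with trypsin. The labels name the cells small intestinal epithelial cells and list 1 sample per group. The stated purpose was to see what depletion of AKK (the labels' abbreviation) by this antibiotic does to the expression of genes in both feeding states.

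DNA replication begins at origins that the origin recognition complex marks, where Cdc6 and Cdt1 load the ring of Mcm2 to Mcm7 in G1. At the start of S phase, kinases allow Cdc45 and the GINS complex to join the ring and turn it into the active helicase. Primase and the polymerases then copy the strands while PCNA, loaded by the RFC complex, holds the polymerase on DNA, and Fen1 and Lig1 join the fragments of the lagging strand. Many of these genes are classic targets of E2F transcription factors, and their mRNA is known to be abundant in the dividing cells of the crypt.

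The deposited tables are the authors' DESeq2 comparisons of feeding states, and no column states the direction. Fasted over fed was assumed, after the word order in the tables' names, and every direction given depends on that reading. The whole counts behind each mean were recovered and showed 4 libraries per table, 2 fasted and 2 fed, where the labels list 1 sample per group. Which library belongs to which labelled sample is unknown, so nothing shows whether they came from separate mice, and p-values may measure technical spread. Within a side, the library with the larger size factor is called library 1. A normalized count is a library's count divided by its size factor, and these factors differed at most 1.17-fold without and 1.75-fold with tetracycline. A gene is called where the authors' adjusted p is under 0.05. In bulk tissue, fewer cells of a type and less RNA per cell cannot be told apart.

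The first comparison asked how fasting changed these genes without tetracycline. Nearly all of them were lower in fasted crypts by a modest amount, and 1 was called. The authors' deposited table gave a negative log2 change for 38 of 39 genes (97.4%), against 49.5% of all 18100 genes with an adjusted p. The median log2 change over the 39 genes in the authors' deposited table was -0.43, which is 1.34-fold lower, with a range from -1.05 to 0.34 and a median standard error (SE) of 0.30. Over all genes the median in the authors' deposited table was 0.007, and over the 9488 genes whose mean lay in the members' range it was -0.037. Cdc45 alone was called lower, a share of 2.56% against 1.22% among all genes in the authors' deposited table, so 1 call among 39 genes is near the rate over all genes. No member (0) was called higher, against 1.06% of all genes in the authors' deposited table. At an unadjusted p under 0.05, 8 genes (20.5%) were lower and 0 higher in the authors' deposited table, against 6.21% of all genes that were lower. Besides Cdc45 these were Pcna, Rfc2, Gins2, Gins3, Fen1, Tyms and Tk1, whose adjusted p ran from 0.197 to 0.401 in the authors' deposited table.

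**Figure D1:**
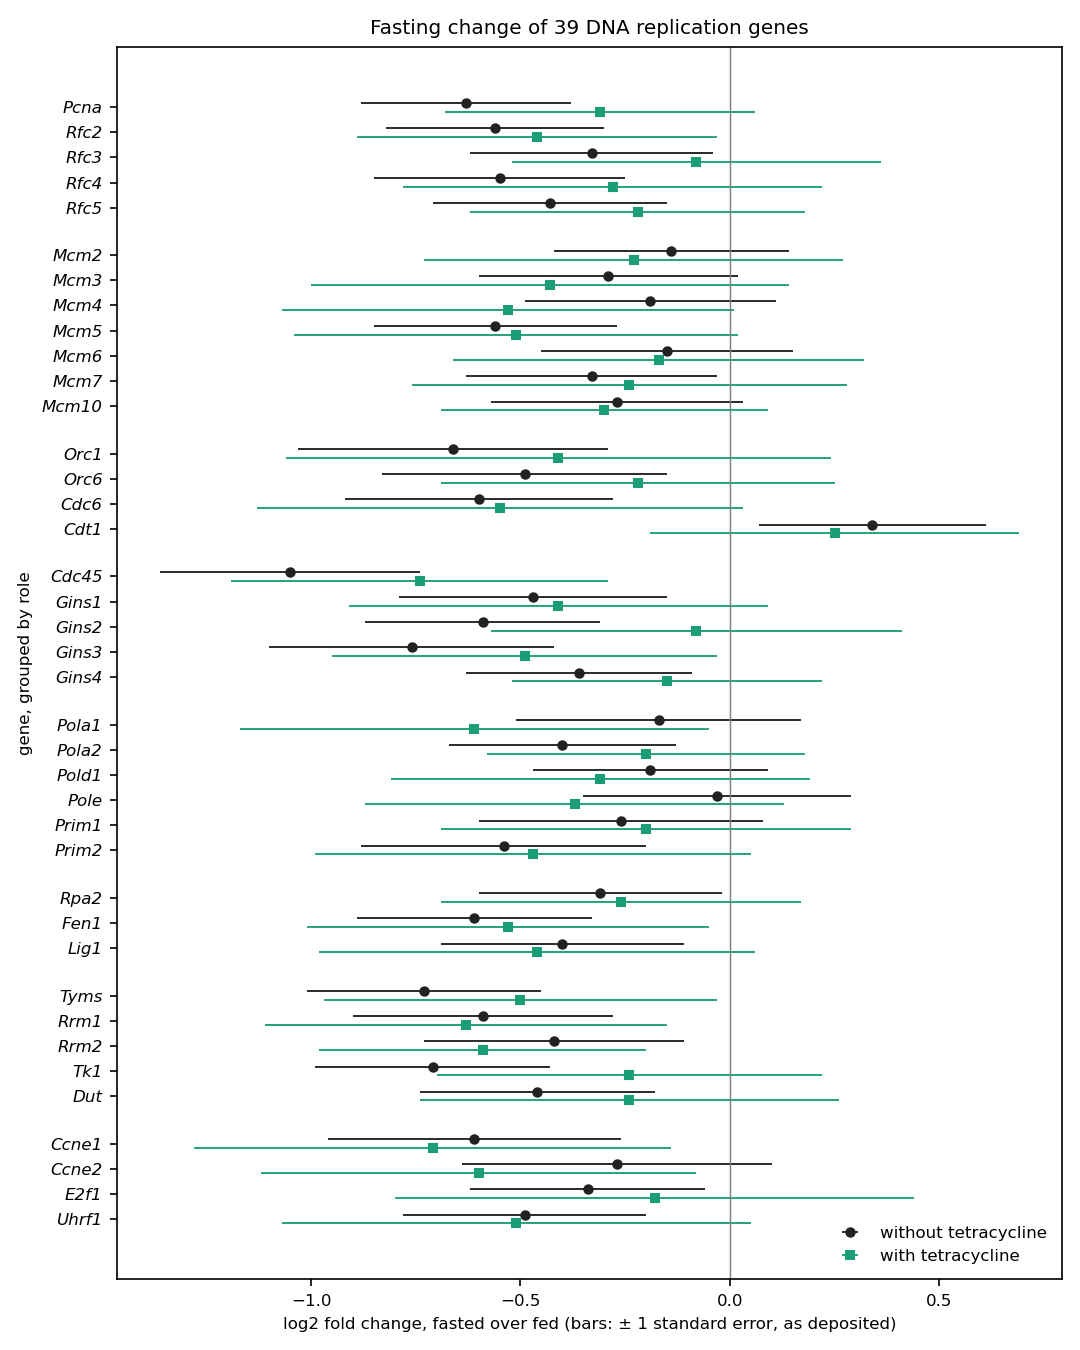
Each point is the log2 fold change, fasted over fed, of 1 gene (rows, grouped by role) in the authors' deposited table without (black circles) or with (green squares) tetracycline, and bars are 1 SE to each side. All points except those of Cdt1 lie below 0 in both tables, and Cdc45 lies lowest in both, at -1.05 and -0.74.

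The libraries showed how far this rested on single samples. In 24 of the 39 genes (61.5%) both fasted libraries were below both fed libraries, against 25.1% of the 12199 genes with recovered counts. Summed over the 39 genes, the normalized counts were 56083 and 69009 in the fasted libraries and 93376 and 71265 in the fed ones. Fed library 1 stood highest in 37 genes, against 21.2% of all genes, and fasted library 1 lowest in 32, against 30.1%. The other fasted and fed libraries were close, and fasted library 2 was above fed library 2 in 14 genes. Without fed library 1 the median log2 change was -0.27 and 29 genes were lower. The ratio of fed library 1 to fed library 2 ranged from 0.912 to 1.70 over the 39 genes, with a median of 1.35.

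**Figure D2:**
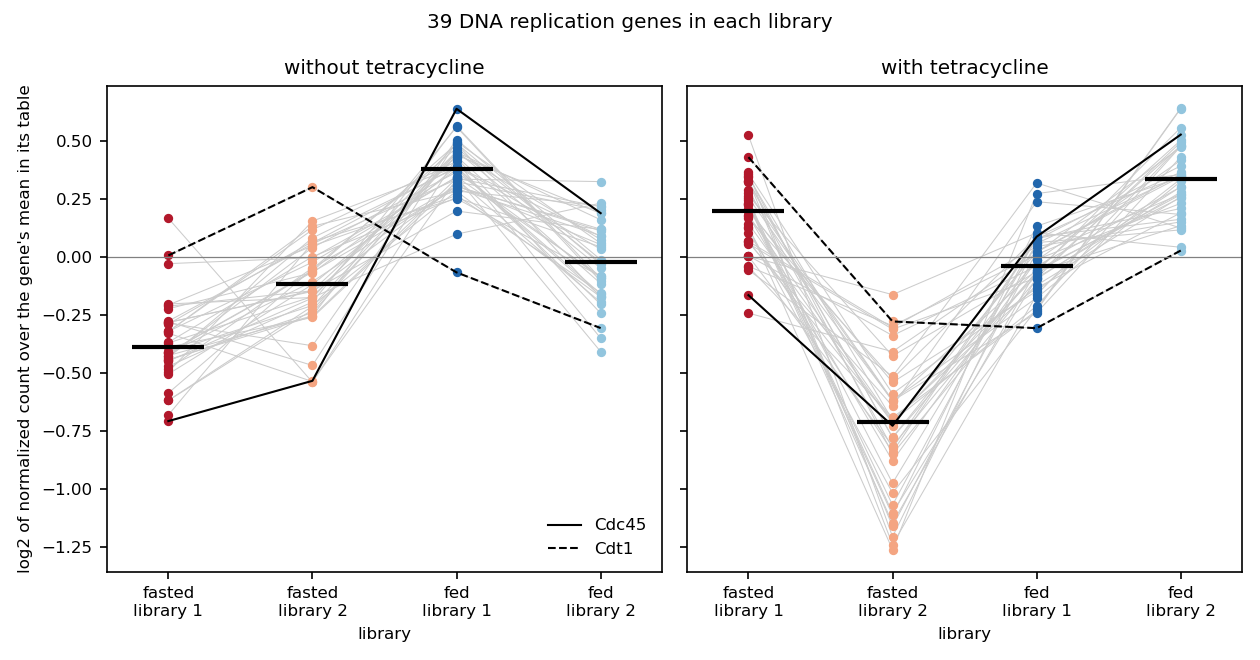
Points are the 39 genes in each library (x axis), as log2 of the normalized count over the gene's mean across the 4 libraries of its table (y axis); grey lines join a gene and black bars are medians, with Cdc45 (solid) and Cdt1 (dashed) drawn in black. Without tetracycline the medians run from -0.39 in fasted library 1 to 0.38 in fed library 1, while with tetracycline fasted library 2 alone lies far down, at -0.71.

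The partners that complete the helicase include the 1 called gene. Cdc45 (chr16:18780447-18811987, minus strand, GRCm38), which joins the MCM ring when origins fire, had 383 and 432 normalized counts in the fasted libraries and 974 and 713 in the fed ones. The groups did not overlap, and the lower fed library was well above both fasted ones. Cdc45 fell by 1.05 on the log2 scale (SE 0.31, p 0.000604, adjusted p 0.032) in the authors' deposited table, 2.07-fold lower in fasted crypts. Adjusted over every row with a p-value, Cdc45 had an adjusted p of 0.0451, and over protein-coding genes alone 0.0315. Leaving out 1 library at a time put its change between -0.81 and -1.26.

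The GINS subunits, which sit beside Cdc45 in the helicase, were each lower without passing the test. Gins3 had 171 and 148 normalized counts when fasted and 271 and 269 when fed, with no overlap and almost equal fed values. The authors' deposited table gave it a log2 change of -0.76 (SE 0.34, adjusted p 0.347). Gins2 had 485 and 530 when fasted and 795 and 730 when fed, again apart, with a log2 change of -0.59 (SE 0.28, adjusted p 0.401) per the authors' deposited table. Gins4 differed least, with 819 and 835 normalized counts against 1009 and 1107, and Gins1 had 238 and 295 against 392 and 345. All 5 genes of this group had both fasted libraries below both fed libraries, against 25.1% of all genes with recovered counts. Their median log2 change in the authors' deposited table was -0.59.

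The sliding clamp and its loader showed the same separation in every member, against 25.1% of all genes with recovered counts. Pcna (chr2:132249162-132253314, minus strand), the ring that tethers the polymerases, had 5255 and 5977 normalized counts when fasted and 9033 and 8295 when fed. The fed values were all higher, and the libraries on each side lay close together. Its log2 change in the authors' deposited table was -0.63 (SE 0.25, p 0.0124, adjusted p 0.23). Rfc2, Rfc3, Rfc4 and Rfc5, subunits of the loader that opens the ring, had log2 changes from -0.56 to -0.33 in the authors' deposited table. Rfc3 was the smallest of them, with 758 and 979 normalized counts when fasted and 1168 and 1008 when fed, so that fasted library 2 almost reached fed library 2. The 5 genes had a median log2 change of -0.55 in the authors' deposited table, and 0 were called.

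The MCM genes, which encode the core of the helicase and Mcm10, a factor of its activation, had overlapping groups in 6 of 7 cases. Mcm2 had 2621 and 3127 normalized counts when fasted and 3636 and 2719 when fed, and the groups overlapped. Mcm6 likewise had 4636 and 6351 when fasted against 7047 and 5142 when fed. Their log2 changes in the authors' deposited table were -0.14 (SE 0.28) and -0.15 (SE 0.30). In 6 of 7 MCM genes fasted library 2 was above fed library 2, and Mcm5 was the exception. Mcm5 had 2376 and 2869 normalized counts when fasted and 4554 and 3175 when fed, and a log2 change of -0.56 (SE 0.29, adjusted p 0.477) per the authors' deposited table. All 7 were lower by some amount, with a median of -0.27 in the authors' deposited table and 0 calls. Without fed library 1 the log2 changes of Mcm2, Mcm3, Mcm4, Mcm6 and Mcm10 were positive, at 0.01 to 0.10, and that of Mcm5 was -0.28.

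Among the licensing genes, Cdt1 went the other way. Orc1 (chr4:108579423-108614833, plus strand), the largest subunit of the origin recognition complex, had 163 and 143 normalized counts when fasted and 279 and 206 when fed. These groups did not overlap, and the log2 change in the authors' deposited table was -0.66 (SE 0.37, adjusted p 0.535). Cdc6, which recruits the MCM ring together with Cdt1, had 383 and 358 when fasted and 663 and 463 when fed, with no overlap. Orc6 overlapped, with 488 and 816 against 1025 and 801. Cdt1 (chr8:122568015-122573554, plus strand), described in full after its values were seen, had 2265 and 2778 normalized counts when fasted and 2153 and 1823 when fed. Both fasted values were above both fed ones, the only member with that order, against 20.2% of all genes. Its log2 change in the authors' deposited table was 0.34 (SE 0.27, adjusted p 0.751), which was not called.

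The 6 polymerase and primase genes had, in the authors' deposited table, a median log2 change of -0.23 without and -0.34 with tetracycline. The corresponding medians were -0.55 and -0.28 for the clamp and loader and -0.27 and -0.30 for the MCM genes in the authors' deposited table, and differences between roles were not tested. Pola1 (chrX:93304767-93632155, minus strand), the catalytic subunit that extends primers, had 906 and 1228 normalized counts when fasted and 1506 and 888 when fed, with wide overlap. In the authors' deposited table it had a log2 change of -0.17 (SE 0.34, adjusted p 0.951). Pole, the leading-strand polymerase, had 1068 and 1087 when fasted against 1382 and 821 when fed, and the smallest change of all members, -0.03 (SE 0.32), in the authors' deposited table. Without fed library 1 the log2 change of Pola1 was 0.27 and that of Pole 0.39. Prim2, a primase subunit, and Pola2 were the 2 of 6 genes with both fasted libraries below both fed ones, against 25.1% of all genes. Their log2 changes were -0.54 (SE 0.34) and -0.40 (SE 0.27) in the authors' deposited table. Pold1, the lagging-strand polymerase, and Prim1, the other primase subunit, were at -0.19 and -0.26 in the authors' deposited table.

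Genes of strand protection and joining were also lower, with 0 calls. Rpa2, a subunit of the single-strand binding protein RPA, had 944 and 1161 normalized counts when fasted and 1498 and 1113 when fed, which overlapped slightly. In the authors' deposited table its log2 change was -0.31 (SE 0.29, adjusted p 0.826). Fen1, the flap nuclease, had 1347 and 1553 when fasted against 2503 and 1932 when fed, with no overlap. The change was -0.61 on the log2 scale (SE 0.28, p 0.0272, adjusted p 0.348) in the authors' deposited table. Lig1, the ligase that seals the fragments, had 2179 and 2396 against 3578 and 2448, so that its separation rested on a narrow gap.

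All 5 nucleotide supply genes were lower. Tyms (chr5:30058202-30073617, minus strand), thymidylate synthase, had 1203 and 1577 normalized counts when fasted and 2505 and 2104 when fed. Every fasted value was below every fed one, and the log2 change in the authors' deposited table was -0.73 (SE 0.28, p 0.0095, adjusted p 0.197). Tk1, thymidine kinase, had 1493 and 1978 when fasted against 3135 and 2561 when fed, also apart, with a log2 change of -0.71 (SE 0.28, adjusted p 0.224) per the authors' deposited table. Rrm1, the large subunit of ribonucleotide reductase, had 2953 and 3578 when fasted and 6037 and 3808 when fed, so that 1 fed library carried most of its difference. Without fed library 1 its log2 change was -0.22, against -0.59 (SE 0.31) in the authors' deposited table. Dut, which removes dUTP, was apart as well, and Rrm2, the small subunit of the reductase, overlapped. The median log2 change of the 5 genes in the authors' deposited table was -0.59, with 0 calls.

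All 4 regulators at the start of S phase were lower. Ccne1 (chr7:38097984-38107534, minus strand), cyclin E1, had 270 and 304 normalized counts when fasted and 536 and 340 when fed, which did not overlap. For Ccne1 the authors' deposited table gave a log2 change of -0.61 (SE 0.35, adjusted p 0.559), and without fed library 1 it was -0.24. Ccne2, cyclin E2, had 550 and 337 when fasted against 659 and 414 when fed, and its fasted libraries stood in the opposite order to those of most members. E2f1, the activating transcription factor of this gene set, had 465 and 487 when fasted and 618 and 585 when fed, apart by a small margin. Uhrf1, which brings the maintenance methyltransferase to new DNA, had 2445 and 2809 against 4336 and 3057. E2f1 and Uhrf1 had log2 changes of -0.34 (SE 0.28) and -0.49 (SE 0.29) in the authors' deposited table.

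**Figure D3:**
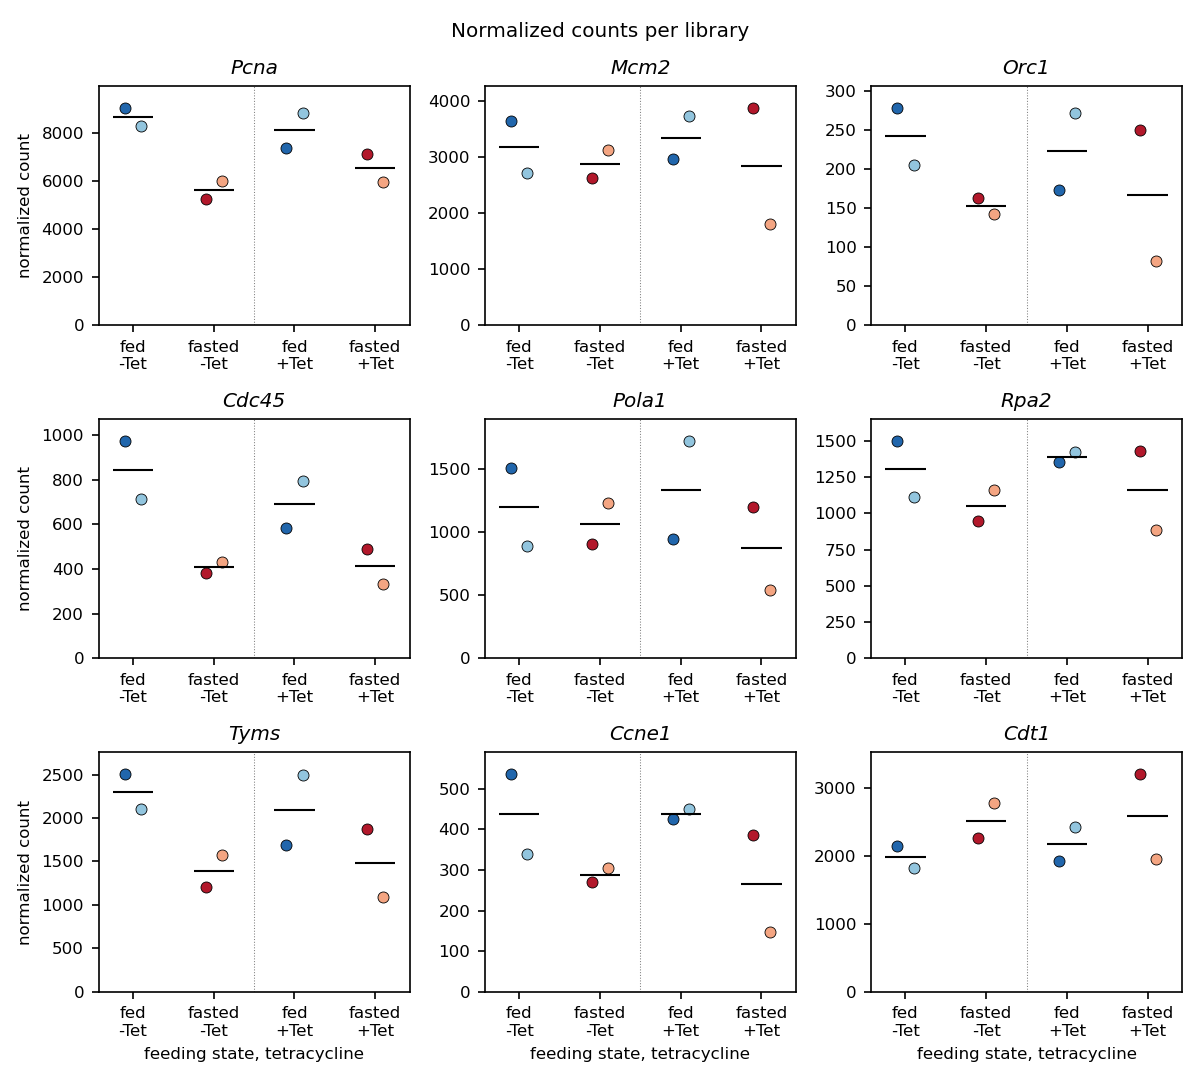
Normalized counts (y axis, from 0) of 9 genes in each library, by feeding state without (-Tet) and with (+Tet) tetracycline; blue points are fed and red or orange points fasted, the darker being library 1, and black lines are means of the 2 libraries. Cdc45 and Pcna have both fasted libraries below both fed libraries on each side of the dotted line, Cdt1 has both fasted libraries above both fed ones without tetracycline and overlaps with it, and the tables were scaled separately.

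Per kilobase of exon, the level of the members without tetracycline differed widely. Pcna was the most abundant with 2975 normalized counts per kilobase, ahead of Mcm6 with 1242 and Mcm7 with 935. At the other end were Orc1 with 56.9, Gins3 with 79.3 and Cdc6 with 89.2 normalized counts per kilobase. Reads were counted from libraries without strand, so overlapping neighbours of any member could add to its count.

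Promoter sequences, from 250 bases before to 50 after the gene's start, were taken from RefSeq on GRCm38.p6 and matched 31 of the 39 genes by symbol. No entry was used for Rfc2, Mcm4, Gins1, Gins2, Gins4, Pole, Prim2 and Ccne2. They were searched on both strands for 4 spellings of the E2F site, TTTGGCGC, TTTCCCGC, TTTGGCGG and TTTCCCGG, and for the CCAAT box, CCAAT. The E2F letters were present in 12 of 31 members (38.7%), against 3.79% of all 27025 genes with a sequence. CCAAT was present in 18 members (58.1%), against 41.1% of all genes. In Uhrf1 1 pair of CCAAT matches overlapped, and no E2F match of a member overlapped another match. A match is a description of letters and not a bound site. The 12 members with E2F letters had a median log2 change of -0.33 without tetracycline in the authors' deposited table, and the 19 with none had -0.49. With tetracycline the medians in the authors' deposited table were -0.37 and -0.30, so holding these letters did not go with a lower median in both tables.

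The sequences that bear on the extremes are given 5′ to 3′ on the gene's strand, with capitals marking the CCAAT matches for Cdc45 and the E2F matches alone for the other genes (the letters as listed or their reverse complement). Cdc45, the called gene, held 0 E2F matches in this window (chr16:18811923-18812222, minus strand), and its 2 CCAAT boxes, 13 and 2 bases before the start on the opposite strand, are in capitals.
Cdc45: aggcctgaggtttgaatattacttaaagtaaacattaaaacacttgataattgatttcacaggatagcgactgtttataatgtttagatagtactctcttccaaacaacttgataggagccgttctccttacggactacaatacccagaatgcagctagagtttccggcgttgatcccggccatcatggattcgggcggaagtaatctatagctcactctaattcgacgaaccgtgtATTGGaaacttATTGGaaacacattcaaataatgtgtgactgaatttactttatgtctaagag
Pola1 held 1 E2F match on the opposite strand 138 bases before the start (chrX:93632106-93632405, minus strand) and 1 CCAAT match 37 bases before it, left in lower case.
Pola1: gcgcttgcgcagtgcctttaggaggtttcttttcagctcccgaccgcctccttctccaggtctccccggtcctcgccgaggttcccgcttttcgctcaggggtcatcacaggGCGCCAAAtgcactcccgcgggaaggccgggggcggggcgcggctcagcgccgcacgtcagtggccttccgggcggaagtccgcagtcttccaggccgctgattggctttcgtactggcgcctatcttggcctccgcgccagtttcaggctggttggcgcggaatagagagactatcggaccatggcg
Mcm6 and Cdt1 were added after their values were seen, as the member with 2 identical E2F matches and the member that went the other way. Mcm6 (chr1:128359656-128359955, minus strand) held them beginning 110 and 47 bases before the start, and 2 CCAAT matches left in lower case at 57 and 14 bases before it.
Mcm6: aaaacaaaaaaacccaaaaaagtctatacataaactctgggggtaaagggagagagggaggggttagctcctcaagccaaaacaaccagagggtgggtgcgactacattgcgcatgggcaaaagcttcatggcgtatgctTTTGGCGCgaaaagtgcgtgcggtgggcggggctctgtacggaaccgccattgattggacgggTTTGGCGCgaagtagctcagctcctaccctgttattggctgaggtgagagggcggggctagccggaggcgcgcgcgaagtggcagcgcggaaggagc
Cdt1 (chr8:122567765-122568064, plus strand) held 1 match that begins at base 33 of the transcript.
Cdt1: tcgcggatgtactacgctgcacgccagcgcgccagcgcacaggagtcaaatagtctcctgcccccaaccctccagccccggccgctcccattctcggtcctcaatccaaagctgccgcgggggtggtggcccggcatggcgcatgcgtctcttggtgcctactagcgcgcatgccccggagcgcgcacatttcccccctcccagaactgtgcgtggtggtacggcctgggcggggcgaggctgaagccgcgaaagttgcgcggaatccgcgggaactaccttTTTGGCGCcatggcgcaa
The letters TTTGGCGC were found in the windows of 5 members, Mcm3, Mcm5, Mcm6, Pola1 and Cdt1, whose log2 changes without tetracycline in the authors' deposited table were -0.29, -0.56, -0.15, -0.17 and 0.34.

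The second comparison asked the same after 21 days of tetracycline. Again 38 of 39 genes (97.4%) had a negative log2 change in the authors' deposited table, against 51.8% of all 17993 genes, and Cdt1 was again the exception. The 38 genes were the same in both tables. The median log2 change in the authors' deposited table was -0.37, or 1.29-fold lower, with a range from -0.74 to 0.25, while over all genes it was -0.018. The median SE of the members was 0.49, against 0.30 without tetracycline. None of them (0) was called lower or higher in the authors' deposited table, against 0.267% and 0.333% of all genes. At an unadjusted p under 0.05 likewise 0 members were lower, against 3.06% of all genes in the authors' deposited table, and every member's adjusted p was 1.

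The difference with tetracycline rested on 1 library. Fasted library 2 was the lowest of the 4 libraries in 38 of 39 genes, against 30.5% of the 12459 genes with recovered counts, and the summed normalized counts of the members were 82887 and 45666 in the fasted and 71575 and 91404 in the fed libraries. Fasted library 1 was above fed library 1 in 32 genes and highest of all in 11, against 21.6% of all genes. Without fasted library 2 the median log2 change was -0.0026, and 20 genes were lower and 19 higher. Without fasted library 1 the median was -0.89 and 39 were lower. Without fed library 2 it was -0.17 and 31 were lower. Both fasted libraries were below both fed libraries in 7 genes (17.9%), against 15.7% of all genes with recovered counts, a share near that of all genes. In 6 of these, Pcna, Rfc2, Cdc45, Gins3, Gins4 and Ccne1, the same held without tetracycline, where 24 of the 39 genes had that order.

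Cdc45 had the largest change here too, with 492 and 333 normalized counts when fasted and 586 and 795 when fed. Its groups did not overlap, and its log2 change in the authors' deposited table was -0.74 (SE 0.45, p 0.0977, adjusted p 1). Without fasted library 2 the change of Cdc45 was -0.49. Gins3 had 202 and 147 when fasted against 262 and 229 when fed, and Gins4 had 995 and 887 against 1067 and 1022, a narrow gap. Gins2 overlapped, with 805 and 417 when fasted and 572 and 716 when fed, and its log2 change in the authors' deposited table was -0.08 (SE 0.49).

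Pcna kept its order in smaller steps, with 7117 and 5959 normalized counts when fasted and 7372 and 8827 when fed. This was a log2 change of -0.31 (SE 0.37) in the authors' deposited table. Rfc3, with 1099 and 681 against 876 and 1005, overlapped, and its log2 change in the authors' deposited table was -0.08 (SE 0.44).

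The MCM genes were split between the fasted libraries. Mcm2 had 3876 and 1800 normalized counts when fasted and 2957 and 3721 when fed, so that 1 fasted library was above and 1 below both fed ones. Mcm6 had 7665 and 3705 when fasted and 5545 and 7224 when fed, in the same order. Both had overlapping groups, with log2 changes of -0.23 (SE 0.50) and -0.17 (SE 0.49) in the authors' deposited table. Of the 7 MCM genes 0 had groups that did not overlap.

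Fasted library 1 was above fasted library 2 in the licensing genes as well. Orc1 had 251 and 82.5 normalized counts when fasted against 174 and 272 when fed, a spread within the fasted side wider than its log2 change of -0.41 (SE 0.65) in the authors' deposited table. Cdt1 had 3204 and 1961 when fasted and 1922 and 2424 when fed, and only fasted library 1 was above both fed ones, at a log2 change of 0.25 (SE 0.44) in the authors' deposited table.

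Pola1 had 1203 and 545 when fasted and 944 and 1722 when fed, with overlap, and a log2 change of -0.61 (SE 0.56) in the authors' deposited table. Pole had 1205 and 651 against 919 and 1481, also with overlap. Rpa2 had 1431 and 885 when fasted and 1352 and 1425 when fed, and fasted library 1 was just above both fed ones. None of the polymerase, primase and fragment-joining genes had groups that did not overlap.

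Tyms had 1869 and 1091 normalized counts when fasted and 1688 and 2490 when fed, and the groups now overlapped. Rrm1 had 4068 and 2307 against 3883 and 5973, with overlap, and a log2 change of -0.63 (SE 0.48) in the authors' deposited table. Rrm2 was the 1 nucleotide supply gene whose groups were apart, with 1804 and 1608 when fasted and 2159 and 2964 when fed. The log2 change of Rrm2 was -0.59 (SE 0.39, p 0.136) in the authors' deposited table. Ccne1 had 386 and 147 when fasted and 426 and 451 when fed, apart through closely matched fed values. Its log2 change in the authors' deposited table was -0.71 (SE 0.57, p 0.211), and without fasted library 2 it was -0.18.

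Whether tetracycline altered the fasting change was tested gene by gene with a Wald test on the change with minus the change without tetracycline, adjusted by Benjamini-Hochberg over 17571 genes. Of the 39 members 0 were called and 0 had an unadjusted p under 0.05, against 0.0228% and 1.05% of all genes. The differences ran from -0.44 (SE 0.65) for Pola1 to 0.51 (SE 0.57) for Gins2 on the log2 scale, with a median of 0.06. The change was less negative with tetracycline in 24 genes and more negative in 15. Cdc45 differed by 0.31 (SE 0.54). With SEs from 0.45 to 0.75, differences of the size of the fasting changes themselves were not detectable, and equal changes are not shown.

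Levels with over without tetracycline cross tables that were scaled apart, and no test was run on them. Centred on all genes, the median log2 ratio of the 39 genes was -0.08 in fed crypts, with 30 lower and 9 higher, and -0.02 in fasted crypts, with 24 lower and 15 higher, where centring sets 50% of all genes lower. Cdc45 had the lowest ratio in fed crypts, -0.35, and Ccne2 the lowest in fasted crypts, -0.50. Gins2 was the highest in fasted crypts at 0.20, and Mcm4 the highest in fed crypts at 0.12. Without centring the fasted median was 0.04, so that no direction can be given for it.

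Another 109 genes around the replication fork were listed by role, and 1 was called lower without tetracycline, a share below the 1.22% of all genes. Asf1b, a histone chaperone of the fork, had 450 and 513 normalized counts when fasted and 1255 and 988 when fed without tetracycline. It fell by 1.22 on the log2 scale (SE 0.29, adjusted p 0.00268) per the authors' deposited table, and with tetracycline its log2 change was -0.94 (SE 0.45, adjusted p 0.886) per the authors' deposited table. Over the 109 genes 87 were lower without and 85 with tetracycline, with medians of -0.26 and -0.22 in the authors' deposited table. Among 25 origin firing and fork factors 24 and 22 were lower in the authors' deposited table, with medians of -0.31 and -0.33. Cdc7, the kinase that fires origins, had log2 changes of -0.74 (SE 0.36, adjusted p 0.43) and -1.05 (SE 0.45, adjusted p 0.711) per the authors' deposited table. Gmnn, which holds Cdt1 inactive, had -0.59 (SE 0.26, adjusted p 0.323) and -0.41 (SE 0.36) in the authors' deposited table.

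The 16 remaining subunits of the same complexes had 13 lower in each of the authors' deposited tables, and the 14 checkpoint genes had 10 and 12 lower. The 23 genes of nucleotide synthesis at large were closer to even, with 15 and 14 lower and medians of -0.12 and -0.10 in the authors' deposited table. This was less of a shift than in the 5 supply genes above, a difference that was not tested. Of 24 genes of G1/S control 18 and 19 were lower, with medians of -0.23 and -0.19 in the authors' deposited table. Ccnd1, cyclin D1, had log2 changes of -0.49 (SE 0.25, adjusted p 0.482) and -0.59 (SE 0.62) in the authors' deposited table. The 7 CDK inhibitors had 7 and 5 lower in the authors' deposited table, and Cdkn1a, which encodes p21, had log2 changes of -0.02 (SE 0.35) and 0.18 (SE 0.54).

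Markers of mitosis were lower as well. All 20 had a negative log2 change in both tables, with medians of -0.78 and -0.51 in the authors' deposited table, and 4 were called lower without tetracycline, against 1.22% of all genes, and 0 with it, against 0.267%. The 20 summed to 35586 and 48872 normalized counts when fasted and 85149 and 53784 when fed without tetracycline, and to 52414 and 37300 against 51584 and 82464 with it, so that 1 fed library stood apart in each table. The 4 called were the mitotic kinases Aurka and Plk1, the passenger protein Birc5 and the ubiquitin-conjugating enzyme Ube2c. Mki67, the proliferation marker, had 6281 and 7931 normalized counts when fasted and 12113 and 6128 when fed, with overlap, and was not called (log2 change -0.36, SE 0.35 and adjusted p 0.83 per the authors' deposited table).

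The summed lymphocyte, myeloid and stromal markers were lowest in the same fasted library as the summed replication genes in each table, while their fed libraries stood in the opposite order. Without tetracycline the 8 of 9 lymphocyte markers in the table were all lower in fasted crypts (median log2 change -1.48, 4 called, against 1.22% of all genes, in the authors' deposited table), and their summed normalized counts were 5894 and 11532 when fasted and 13885 and 17748 when fed. With tetracycline all 8 were again lower, with a median log2 change of -1.80 and 0 calls in the authors' deposited table, and the sum of the 7 recovered lymphocyte markers was 18517 and 3162 when fasted and 56424 and 14904 when fed. Fasted library 2 was thus lowest for lymphocyte markers as it was for the replication genes, and the same held for the 6 myeloid markers (1938 and 704 against 5140 and 2427) and the 6 stromal markers (2023 and 746 against 3692 and 1486). Without tetracycline the stromal markers were lower in 6 of 6 in the authors' deposited table (median -1.85, with Col1a1, Col1a2 and Col3a1 called). The myeloid markers were lower in 5 of 6 there (median -0.85, with Lyz2 called), and 1.22% of all genes were called lower. The sums without tetracycline were 762 and 1458 against 1563 and 2895 for the stromal and 1246 and 1587 against 2119 and 3363 for the myeloid list. With tetracycline 4 stromal markers were lower and 2 higher (median -1.03) in the authors' deposited table. Of the myeloid markers 5 of 6 were lower there (median -1.42), and 0 of either list were called. Markers of germinal centre B cells, another dividing population, summed to 3183 and 2647 when fasted and 2313 and 3001 when fed without tetracycline, and to 2686 and 2972 against 3217 and 2590 with it. None of the recovered markers of these lists was at 0 in all libraries. Of 5 erythroid markers 4 were in the table without tetracycline, with a median log2 change of -2.63 in the authors' deposited table. All 4 were called lower, against 1.22% of all genes. Alas2, which makes heme in these cells, had 488 and 735 normalized counts when fasted and 2048 and 5383 when fed. With tetracycline the 4 had a median of -1.33 and 0 calls in the authors' deposited table, and the 2 recovered summed to 7974 and 1491 when fasted and 14001 and 11217 when fed. The part of these cells in the replication genes' result was not tested.

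Among epithelial types, the stem cell markers did not follow the replication genes without tetracycline. The 9 recovered of 10 summed to 19211 and 22525 normalized counts when fasted and 21202 and 15251 when fed, and 8 of 10 had a positive log2 change in each of the authors' deposited tables. With tetracycline their sum was 28311 and 13172 when fasted and 13172 and 22540 when fed, and here fasted library 2 was below fasted library 1. The 11 Paneth cell markers had 10 and 11 higher, with 5 and 1 called, against 1.06% and 0.333% of all genes called higher. The 13 enterocyte markers had 11 higher in each of the authors' deposited tables. Of these, 2 (Apob and Fabp1) were called without tetracycline and 0 with it, beside the same shares of all genes. Goblet cell markers were lower in 6 of 8 without tetracycline (median -0.27) in the authors' deposited table. Agr2 was called lower, against 1.22% of all genes. With tetracycline 6 of the 8 goblet cell markers were higher (median 0.29) in the authors' deposited table. The 7 general epithelial markers, defining for the labelled cell type, were present in both tables with median log2 changes of 0.01 and 0.31 in the authors' deposited table. The part of these shifts in the replication genes' result was not tested.

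**Figure D4:**
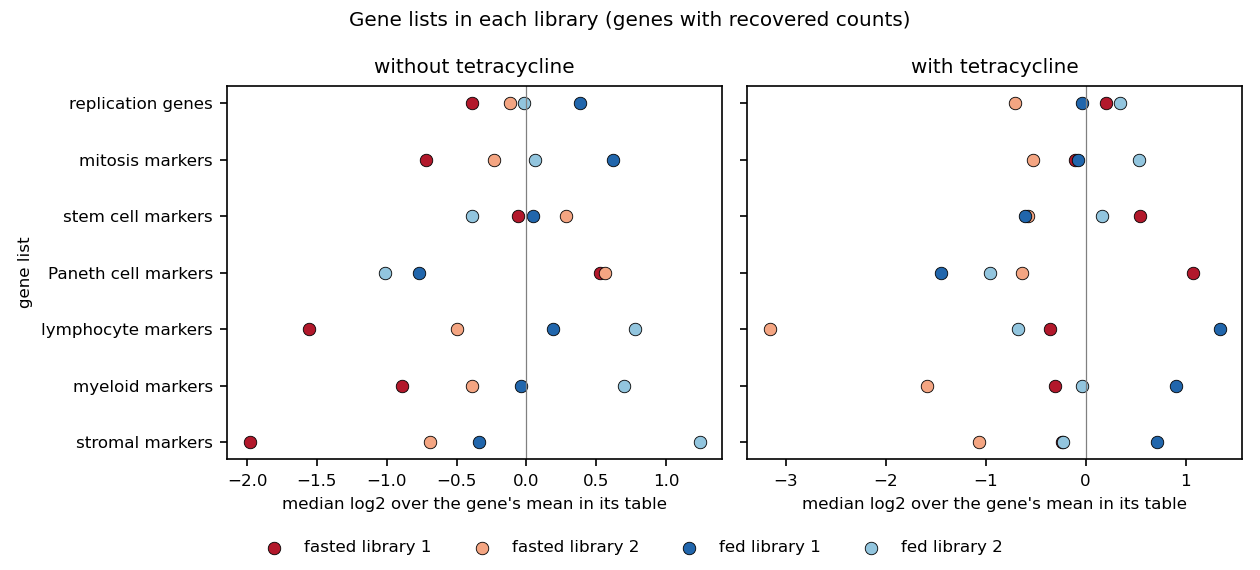
Points are medians over the recovered genes of each list (rows), as log2 of a library's normalized count over the gene's mean in its table (x axis), coloured by library, without (left) and with (right) tetracycline. Fasted library 2 with tetracycline is lowest for the replication genes at -0.71 and for the lymphocyte markers at -3.16.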

How the data were processed

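RNA-seq of small intestinal crypts was available as 2 tables of the authors' own comparisons, 1 without and 1 with tetracycline. Per the submitters' processing notes, Salmon, DESeq2 and mm10 were used, with no versions or roles given; the annotation release is not given in the sources used here. Per the file headers, the authors' mean is a signal: each library's counts over its size factor, averaged. Fold changes and their SEs were deposited as log2 values. The deposited score is the fold change over the SE. The deposited p-values come with values adjusted by Benjamini-Hochberg over the rows that passed the authors' filter. There were 0 further per-sample columns.

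Because a mean adds up whole counts, each multiplied by a weight that is fixed for its library, the counts of 4 libraries per table could be recovered, keeping for each gene the set whose refitted log2 fold change differed from the deposited one by less than 1e-05. Among genes with means of 50 to 9999, counts were recovered for 99.8% of 12229 without tetracycline and 99.7% of 12493 with it. Salmon estimates counts, so these whole counts may be rounded estimates. Library values are given singly and untested, with no count model, since their samples are unknown.

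The difference of the fasting changes was a Wald test, two-sided, adjusted over all genes with an adjusted p in both tables. Levels across tables were rebuilt from mean and fold change with pseudocount 1. Coordinates are from GENCODE mouse release M21 (GRCm38), in which 99.3% of gene identifiers were found without version. Scripts used Python 3.11.15, numpy 2.4.6, pandas 2.3.3, scipy 1.17.1 and matplotlib 3.10.9, and were tested on simulated data. Values in full are given for called members, the first of each role, and the 3 largest and 3 smallest changes per table; other genes are named where called or on a short list (Mki67, Cdkn1a, Ccnd1, Myc, Cdc7, Gmnn and Lgr5). The members and lists were chosen with earlier results of these data known.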

Additional observations from a re-analysis of the deposited data

How the results depend on the processing

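At an adjusted p under 0.01 the number of members called without tetracycline went from 1 to 0. Leaving out each library in turn put the median log2 change between -0.60 and -0.27 without and between -0.89 and -0.0026 with tetracycline, and the number of members lower between 29 and 38 without and between 20 and 39 with it. The value of -0.89 came without fasted library 1, and those of -0.0026 and 20 without fasted library 2; the cause was not tested. The median level with over without tetracycline in fasted crypts turned from -0.02 to 0.04 without centring, by the shift of all genes. The other 41 of 45 alternatives to the main results kept their direction and side of the threshold, or stayed within the spread between libraries. Of 546 alternatives for single members, 34 moved by more than the SE and 0 turned a called direction. No paired analysis was possible because each group has 1 labelled sample and the recovered libraries carry no numbers from the labels. The members' means were 195 or more normalized counts, so their precision was set by the spread between libraries more than by counting. At the members' median SE, a log2 change of 0.58 without and 0.96 with tetracycline is needed for an unadjusted p of 0.05.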

Other observations

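Lgr5, the receptor that marks crypt base stem cells, had 1003 and 1168 normalized counts when fasted and 665 and 375 when fed without tetracycline. Both of its fasted values were above both fed ones, opposite to most replication genes. Its log2 change in the authors' deposited table was 1.06 (SE 0.34, adjusted p 0.0711), which was not called. With tetracycline Lgr5 had 1515 and 399 when fasted and 391 and 722 when fed, with overlap, and the log2 change in the authors' deposited table was 0.78 (SE 0.68, adjusted p 1). Myc, a growth regulator upstream of many S phase genes, had 2478 and 3357 when fasted and 2909 and 1999 when fed without tetracycline, with overlap. Its log2 changes in the authors' deposited table were 0.25 (SE 0.31, adjusted p 0.888) without and 0.37 (SE 0.48, adjusted p 1) with tetracycline.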
